A study of Mus musculus with 48 samples.

Results

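Vitamin C (Vc) was given to mouse embryonic stem cells (ESCs) for 48 h, and these cells were set against cells kept for the same time without small molecules (Con). The comparison was defined by the labels alone: 4 of the 48 samples of the series, 2 libraries labelled Vc_48h and 2 labelled Con_48h. The study looked for small molecules that turn ESCs into cells resembling the somatic cells of the fetal gonad, and Vc was used alone or together with AM580, an agonist of retinoic acid receptor alpha; the combination is called V580. The strain by the labels is C57BL/6. Per the study's text, female ESCs were taken off 2i and LIF, feeder cells were removed by their faster adherence, and the ESCs were seeded on fibronectin in differentiation medium. Both groups share this withdrawal of 2i and LIF, and by their labels they differ in Vc alone. The labels place the control at 48 h, whereas the study's text speaks of controls at day 0; the libraries were used here as labelled. Each library was made from poly-A RNA of total RNA of a whole culture, so fewer cells of a type and less RNA per cell cannot be told apart. The labels do not say that the 2 libraries of a group came from separate cultures, so p-values measure the spread between these libraries, which may be technical.

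Vc (ascorbate) keeps iron reduced in the active site of a family of dioxygenases that use oxoglutarate. Among them are the prolyl hydroxylases that mark the alpha subunits of hypoxia-inducible factor (HIF) for destruction when oxygen is present, the collagen prolyl and lysyl hydroxylases, the JmjC histone demethylases and the TET enzymes that oxidise methylcytosine in DNA. HIF binds a short DNA element with the core ACGTG or GCGTG, of which only the former was searched here, and switches on genes for glucose uptake, glycolysis and survival in low oxygen. In ESC cultures Vc is known above all for promoting TET activity and loss of DNA methylation at germline genes.

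The ACGTG core is shown here in the promoters of 3 genes that fell with Vc: Bnip3, a mitochondrial receptor for mitophagy, P4ha1, a catalytic subunit of collagen prolyl hydroxylase, and Pgk1, a glycolytic kinase. Each line holds the 250 bases before the start of the RefSeq transcript in GRCm38.p6, read 5′ to 3′ on the strand of the gene, with the core on either strand (ACGTG or CACGT) in capitals. The windows are chr7:138909507-138909756 on the minus strand, chr10:59323046-59323295 on the plus strand and chrX:106186850-106187099 on the plus strand.
Bnip3: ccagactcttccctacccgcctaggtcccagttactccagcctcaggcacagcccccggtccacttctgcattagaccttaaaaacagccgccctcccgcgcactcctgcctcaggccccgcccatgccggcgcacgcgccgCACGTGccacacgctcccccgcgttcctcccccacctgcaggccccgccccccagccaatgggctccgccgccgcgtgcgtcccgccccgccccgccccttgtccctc
P4ha1: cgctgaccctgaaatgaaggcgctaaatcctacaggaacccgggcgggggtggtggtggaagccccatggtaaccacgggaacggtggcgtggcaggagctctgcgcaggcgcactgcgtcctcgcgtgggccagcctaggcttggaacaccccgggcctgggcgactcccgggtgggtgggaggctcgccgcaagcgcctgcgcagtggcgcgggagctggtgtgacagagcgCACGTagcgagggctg
Pgk1: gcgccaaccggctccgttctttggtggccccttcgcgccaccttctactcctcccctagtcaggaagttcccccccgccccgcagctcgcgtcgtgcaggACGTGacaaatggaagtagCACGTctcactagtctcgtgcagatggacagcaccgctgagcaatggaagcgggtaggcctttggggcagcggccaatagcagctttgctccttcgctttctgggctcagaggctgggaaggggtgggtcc
In Bnip3 the core lay within CACGTG, the E-box palindrome, which holds it on both strands. Among the tested genes with a promoter in the RefSeq table (8624 of 10644), 22.8% held the core in this window, against 15 of 24 (62.5%) of the HIF target list, 6 of 17 (35.3%) of the glycolysis list and 24.1% of the genes that fell with Vc. The share was 17.7% among the genes that rose and 23% among those that did neither. A core that was not part of an E-box was held by 15.4% of the windows over all and by 58.3% over the HIF list. Within the HIF list the core was held by 9 of 14 members that fell (64.3%) and by 6 of 10 of the others (60%). A window was found for 82.4% and 76.9% of these members. The shares lay close together, and the members are too few for a test. No ACGTG was found in this window for Pfkl, Narf, Tpi1, Eno1, Kdm3a or Ak4, which also fell, or for Pdk1, As3mt and Lgals9, which rose, while the rising Car9, Prss50 and Pfkm held it. A match of letters is a description of the window and not of a bound site.

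The values are FPKM (sequenced fragments scaled to transcript length and to the fragments of the library), 1 per gene and library, for 13682 genes. Differences were fitted with limma on log2(FPKM + 1) in one model of 16 libraries, the Con, Vc, AM580 and V580 groups at 24 h and 48 h, over the 10644 genes that reached an FPKM of 1 in 2 or more of these libraries. A gene is said to have risen or fallen when its Benjamini-Hochberg adjusted p was below 0.05, and every adjusted p below is of this kind. Log2 differences are on the log2(FPKM + 1) scale, which understates the change of genes of low level, and folds are ratios of the mean FPKM of the groups. The depth of the libraries is not given in FPKM. The steps between low values put it at about 20100000 and 21500000 fragments for Con_48h and 21900000 and 17800000 for Vc_48h, an estimate only.

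The 4 libraries carried the markers of ESCs, while Foxl2 and most listed markers of gonadal somatic cells were below an FPKM of 1. Pou5f1, the core pluripotency factor also called Oct4, stood at 451 and 461 FPKM in Con_48h and at 369 and 378 in Vc_48h. Foxl2, the ovarian granulosa factor, was at most 0.124 FPKM in any of them and was not tested. Of 26 gonadal somatic genes in the table, 15 lay below an FPKM of 1 in all 4 libraries. Others were present, such as Wt1 at 9.86 to 12.8 FPKM, so the label that calls the material gonadal somatic cell-like is not borne out by most of these markers.

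Replicates lay closer to each other than groups did. The root mean square of the log2 differences over the tested genes was 0.102 between the Con_48h libraries and 0.111 between the Vc_48h libraries, and between 0.169 and 0.184 for the 4 pairs across groups. In a principal component analysis of the 16 libraries the first component held 66.4% of the variance and the third 4.24%. The third component put the Con_48h libraries at 5.10 and 5.33 and the Vc_48h libraries at -6.03 and -7.11.

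Vc changed many genes by small amounts. At 48 h, 678 genes rose (6.37% of those tested) and 646 fell (6.07%), and the middle of the distribution was near 0, with most log2 differences between -0.23 and 0.25. When each library was first centred on its own median log2 value, the split was 545 higher and 902 lower. An adjusted p below 0.05 together with a change of at least 2-fold on the log2(FPKM + 1) scale was reached by 5 genes (0.047%), As3mt upward and Ifitm1, Ddit4, Bnip3 and P4ha1 downward. At 1.5-fold 34 genes were higher (0.319%) and 39 lower (0.366%). In 59% of all tested genes the values of the groups did not overlap, and this held for all 1324 genes that rose or fell. Leaving out 1 library lowered the number of changed genes to 649 without the first Con_48h library, 691 without the second, 715 without the first Vc_48h library and 576 without the second, of which 612, 653, 672 and 553 were among the 1324. Each such omission leaves a group of 1 library, whose spread is then assumed to be that of the other groups.

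**Figure D1:**
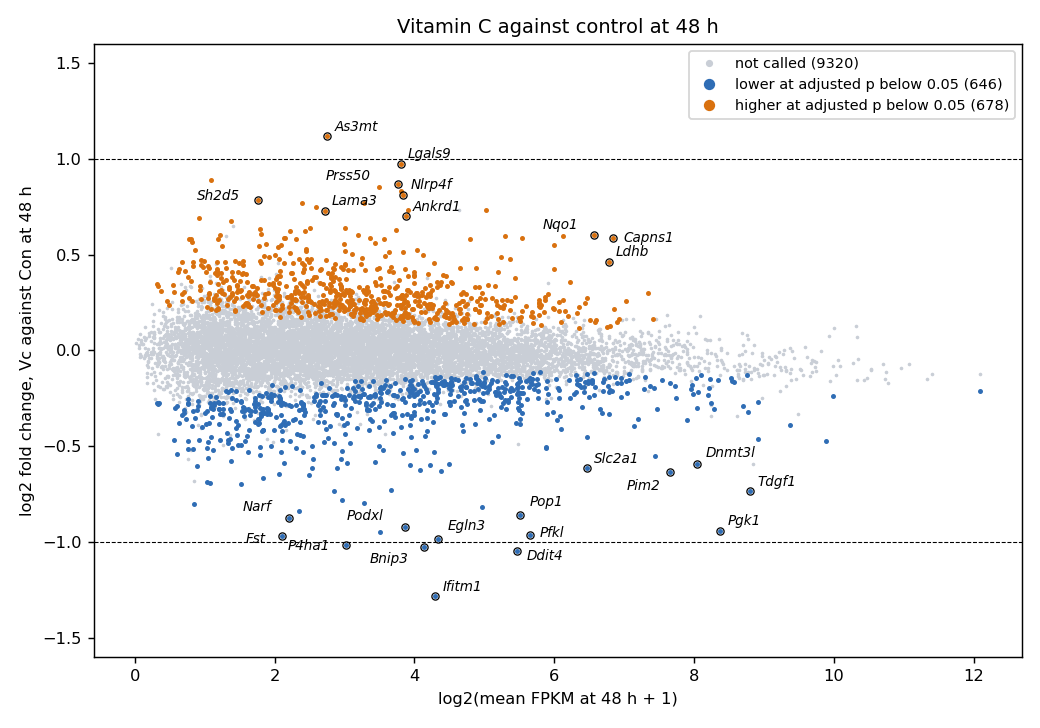
Log2 difference between Vc_48h and Con_48h on the log2(FPKM + 1) scale (vertical axis) against the mean level of the 4 libraries as log2(FPKM + 1) (horizontal axis) for each of the 10644 genes tested, with the 678 genes that rose and the 646 that fell marked. Of the points, 5 that rose or fell lie at or beyond the dashed lines of 2-fold; Gapdh, at -2.68, lies outside the axis. The strongly lowered, highly expressed genes include Pgk1 and Tdgf1.

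Of the 4 genes that fell at least 2-fold on the log2(FPKM + 1) scale, 3 were HIF targets. With a pseudocount of 0.1 in place of 1, 23 genes of any kind fell at least 2-fold. Ddit4 (chr10:59949669-59951834 in GRCm38), an inhibitor of mTORC1 signalling, measured 59.9 and 57.8 FPKM in Con_48h and 28.6 and 27.3 in Vc_48h, 2.10-fold less (log2 difference -1.05, SE 0.0897, adjusted p 5.22e-06 by limma). Bnip3 (chr7:138890836-138909519) measured 22.1 and 23.0 against 10.7 and 10.5 FPKM (log2 difference -1.02, SE 0.0785, adjusted p 1.52e-06). In both genes the Vc libraries lay far below the Con libraries, and the distance between groups was many times that between replicates. The annotation has the noncoding gene Gm45507 over exons of Bnip3, and since the strand used in counting is not stated, reads of the pair cannot be told apart. The same limit holds for other genes named here with exon overlaps, such as Slc2a1 (Gm12868), Tpi1 (Spsb2), Fst (Gm47040), Pou5f1 (Gm19553) and Cdkn1c (Gm44732).

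Among the hydroxylases that use Vc as a cofactor, P4ha1 and Egln3 fell most. P4ha1 (chr10:59323296-59373304) measured 9.35 and 10.4 FPKM without Vc and 4.37 and 4.35 with it, 2.26-fold less (log2 difference -1.02, SE 0.0753, adjusted p 1.27e-06). Egln3 (chr12:54178981-54203860), the HIF prolyl hydroxylase PHD3 and itself a HIF target, measured 25.1 and 26.7 against 12.74 and 12.49 FPKM, 2.06-fold less (log2 difference -0.98, adjusted p 1.72e-08). The list of prolyl and lysyl hydroxylases also holds related genes that are neither, such as Hif1an and Phyh, which both rose. Of its 21 tested members 6 fell and 4 rose (6.07% and 6.37% of all genes), with a median log2 difference of -0.05. All that fell except P4hb, namely Egln1, Egln3, P4ha1, P4ha2 and Plod2, are also on the HIF target list. Plod2, a collagen lysyl hydroxylase and HIF target, fell by 0.40 and P4hb, the beta subunit of the collagen enzyme, by 0.20 on the log2 scale. P4hb lost its call without the second Con_48h library (adjusted p 0.0514) but not without any other. Egln1, the main HIF prolyl hydroxylase, fell by 0.27 (adjusted p 0.00409, and 0.0655 without the first Con_48h library). Hif1an, the asparagine hydroxylase that blunts HIF activity, rose by 0.16 from 13.6 and 14.1 to 15.6 and 15.6 FPKM (adjusted p 0.0363), a call that was lost without any 1 of the 4 libraries, with adjusted p between 0.0751 and 0.21.

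Across 30 tested genes of the HIF target list, 17 fell, 2 rose and 11 passed in neither direction, where 6.07% of all genes fell and 6.37% rose. The median log2 difference was -0.28, against 7e-04 for all genes, and 25 of the 30 lay below 0. Their summed level went from 519 and 520 FPKM to 366 and 363. Narf, known to be induced by hypoxia in ESCs, measured 4.93 and 5.07 FPKM in Con_48h and 2.20 and 2.35 in Vc_48h (log2 difference -0.87). Ak4, a mitochondrial adenylate kinase, fell by 0.80 from 11.2 and 11.4 to 6.15 and 5.98 FPKM, and Fam162a, a mitochondrial protein of the hypoxic death response, fell by 0.51. Kdm3a, a JmjC histone demethylase that HIF induces, fell by 0.52 from 8.02 and 8.39 to 5.36 and 5.44 FPKM. The 2 members that rose were Pdk1 and Car9. Pdk1, a kinase that inhibits pyruvate dehydrogenase, went from 24.7 and 24.1 to 29.3 and 30.1 FPKM (log2 difference 0.27, adjusted p 0.00256 by limma). Car9, a carbonic anhydrase near its detection limit, measured 0.153 and 0.165 against 0.422 and 0.450 FPKM. Car9 was below 1 FPKM in the 4 libraries compared and was tested only because other groups passed that level. Its call was lost without any 1 of the 4 libraries, with adjusted p between 0.0924 and 0.14. Vegfa, the angiogenic ligand, measured 3.31 and 3.20 against 3.68 and 3.40 FPKM and did not pass the test (adjusted p 0.438).

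**Figure D2:**
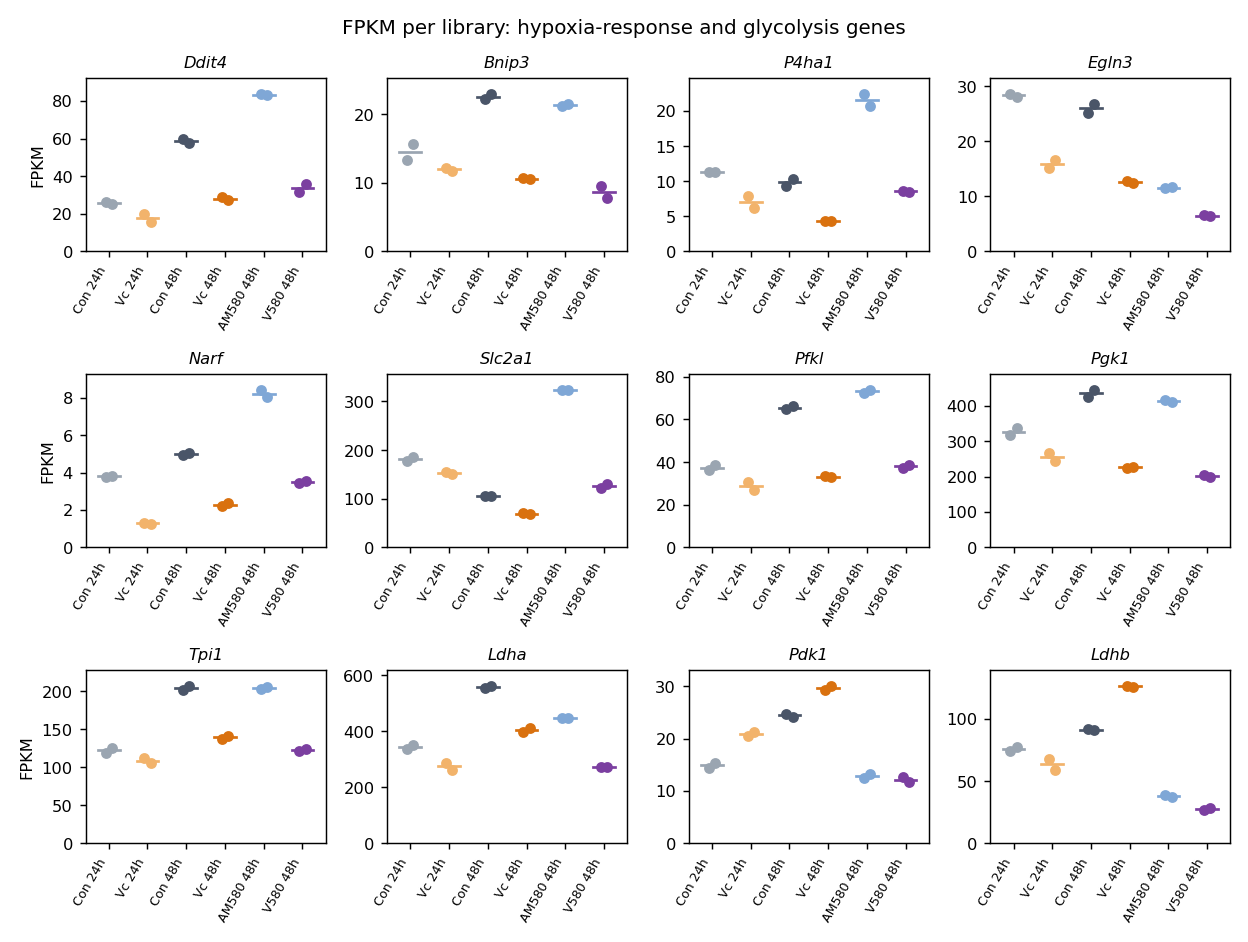
FPKM of 12 HIF target and glycolysis genes in every library of 6 groups, Con and Vc at 24 h, Con and Vc at 48 h, and AM580 and V580 at 48 h; points are libraries and the line is the mean of 2. At 48 h each gene but Pdk1 and Ldhb is lower with Vc, and in 11 of the panels, all but Pdk1, V580 lies below AM580 as well.

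Transcripts for glucose import and most steps of glycolysis fell. Slc2a1, the glucose transporter GLUT1, which also carries oxidised Vc, measured 106 and 106 FPKM in Con_48h and 70.1 and 67.7 in Vc_48h (log2 difference -0.62, adjusted p 2.19e-07). Pfkl, phosphofructokinase of the liver type and the committed step of the pathway, measured 65.1 and 66.1 against 33.4 and 32.9 FPKM, 1.98-fold less (log2 difference -0.96, adjusted p 5.55e-08). Pfkm, the muscle isoform of the same step, rose by 0.21 from 26.4 and 27.7 to 28.9 and 34.0 FPKM (adjusted p 0.0467), lost without either Con_48h library (0.24 and 0.0939) or the second Vc_48h library (0.434). Pgk1 (chrX:106187100-106203699), the first step that makes ATP, measured 426 and 446 against 225 and 228 FPKM, 1.93-fold less (adjusted p 1.72e-08). Slc2a1, Pfkl and Pgk1 had groups that were far apart next to the distance between replicates. Pgk1 has processed copies elsewhere in the genome, and how reads shared with them were counted is not given in the sources used here.

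Other steps fell by less than Pfkl and Pgk1, with no order along the pathway. The early enzymes Hk2, a hexokinase, and Gpi1, glucose phosphate isomerase, each fell by 0.19; the call of Hk2 was lost without any 1 of the 4 libraries (adjusted p 0.108 to 0.211) and that of Gpi1 without the second Con_48h library (0.16), the first Vc_48h library (0.123) or the second (0.0706). The log2 differences were -0.55 for Tpi1, triose phosphate isomerase, -0.32 for Pgam1, phosphoglycerate mutase, -0.39 for Eno1, enolase, -0.47 for Pkm, pyruvate kinase, and -0.47 for Ldha, the lactate dehydrogenase subunit of glycolytic cells. Pkm was the most abundant member, at 1081 and 1112 FPKM against 778 and 800. Slc16a3, the lactate exporter MCT4, fell by 0.34 from 73.2 and 76.3 to 58.9 and 58.6 FPKM. Ldhb, the other lactate dehydrogenase subunit, rose, from 91.6 and 91.2 to 127 and 126 FPKM (log2 difference 0.46, adjusted p 7.21e-05). In all, 11 of 17 tested genes of the list fell and 2 rose (6.07% and 6.37% of all genes), with a median log2 difference of -0.32, and their summed level went from 3970 and 4120 to 2920 and 2950 FPKM. The median and the sums include Gapdh, the lowest value of the list at -2.68, which could not be read. The median would be less negative without Gapdh. The aldolases Aldoa and Aldoc did not pass the test (adjusted p 0.742 and 0.479). Gapdh could not be read: its values were 85.7 and 109 FPKM in Con_48h and 49.4 and 3.56 in Vc_48h, an SE of 1.53, and it has many near-identical pseudogene copies.

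Transporters of Vc itself moved in both directions. Slc23a1, the sodium-dependent Vc transporter SVCT1, rose from 2.31 and 2.82 to 3.55 and 3.71 FPKM (log2 difference 0.38, adjusted p 0.0094), and the call was lost without the first Con_48h library (adjusted p 0.119) or the second Vc_48h library (0.0778). Slc23a2, which encodes SVCT2, fell from 6.90 and 7.56 to 5.55 and 5.51 FPKM (log2 difference -0.33, adjusted p 0.0118), and this call was lost without the second Con_48h library (0.11) or without the first or the second Vc_48h library (0.0595 and 0.0726). Slc2a3, the glucose transporter GLUT3, fell by 0.39. Slc2a1 and Slc2a3 are on the HIF target list as well as on that of Vc transport.

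The demethylases of histones and DNA also use Vc. Among 17 tested histone lysine demethylases 4 fell and none rose, against 6.07% and 6.37% of all genes, and apart from Kdm3a the largest fall was that of Kdm4c, which removes methyl groups from H3K9, from 27.6 and 28.8 to 21.9 and 22.6 FPKM (log2 difference -0.33). The TET dioxygenases did not pass the test, with log2 differences of 0.16 for Tet1 (adjusted p 0.553), 0.03 for Tet2 (0.895) and 0.05 for Tet3 (0.721). Tet1 measured 16.9 and 15.0 FPKM in Con_48h and 19.2 and 16.7 in Vc_48h, and the groups overlapped. These are transcript levels and say nothing of enzyme activity. Of the 20 genes of DNA methylation and demethylation, Dnmt3l, the cofactor that stimulates de novo methylation, fell from 299 and 330 to 200 and 216 FPKM (log2 difference -0.59, adjusted p 2.93e-05). Dnmt3b, a de novo methyltransferase, measured 403 and 423 against 386 and 372 FPKM and did not pass (adjusted p 0.0517); it passed in 4 of 13 alternative settings, with adjusted p between 0.0162 and 0.0483. Uhrf1, which brings Dnmt1 to replicated DNA, rose by 0.15 (adjusted p 0.0104), lost without the first Con_48h library (0.101) or the second Vc_48h library (0.115).

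Few germline genes could be measured. Only 21 of the 61 listed genes are in the table and 18 were tested, of which 6 rose and 2 fell (6.37% and 6.07% of all genes), with a median log2 difference of 0.19. Fkbp6, needed for meiosis and piRNA production, measured 5.08 and 5.85 FPKM in Con_48h and 8.22 and 8.73 in Vc_48h (log2 difference 0.55, adjusted p 0.000489). Tex15, a factor of transposon silencing in germ cells, rose by 0.51 from 6.09 and 6.20 to 9.19 and 9.08 FPKM. Smc1b, the meiotic cohesin, was below 1 FPKM in the 4 libraries of 48 h and was tested only because it passed 1 FPKM at 24 h; it rose by 0.46, from 0.373 and 0.305 to 0.710 and 0.981 FPKM. Piwil2, a piRNA-binding protein, rose by 0.31, with adjusted p of 0.0637 and 0.0639 without the first Con_48h or the second Vc_48h library. Stag3, another meiotic cohesin, rose by 0.24, and its call was lost in 3 of the 4 omissions, with adjusted p of 0.212, 0.0802 and 0.286. Ddx4, the germ cell RNA helicase Vasa, went the other way, from 12.7 and 12.8 to 8.69 and 8.50 FPKM (log2 difference -0.52, adjusted p 4.02e-05).

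Genes of cholesterol synthesis and uptake moved upward by small steps. Of 24 tested, 11 rose and none fell (6.37% and 6.07% of all genes), with a median log2 difference of 0.17 and a summed level of 522 and 540 FPKM without Vc and 599 and 597 with it. Hmgcs1, a synthase early in the pathway, rose by 0.20 from 45.65 and 47.96 to 53.54 and 54.32 FPKM. Insig1, the sterol sensor that SREBP itself induces, rose by 0.26 from 32.1 and 31.3 to 37.3 and 38.7 FPKM. The calls depended on single libraries: 6 genes of the list passed without the first Con_48h library and 5 without the second Vc_48h library. Hmgcs1 was lost without the first Con_48h library (adjusted p 0.0877) or the second Vc_48h library (0.068).

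Among 14 tested BMP target genes 6 fell and none rose (6.07% and 6.37% of all genes), with a median log2 difference of -0.16, which was -0.447 with an FPKM filter of 5 and -0.243 with a pseudocount of 0.1. The Id genes encode inhibitors of basic helix-loop-helix factors, and Id3 went from 27.10 and 25.01 to 17.5 and 16.4 FPKM (log2 difference -0.59), while Id2 fell by 0.52 and Id1 by 0.45. Msx1, a homeobox target, fell by 0.52, and Smad7, an inhibitory SMAD, by 0.28. Bmp4, the ligand, measured 2.64 and 1.88 against 1.34 and 1.25 FPKM (log2 difference -0.50, adjusted p 0.0044), and the call was lost without the first Con_48h library (adjusted p 0.0687).

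**Figure D3:**
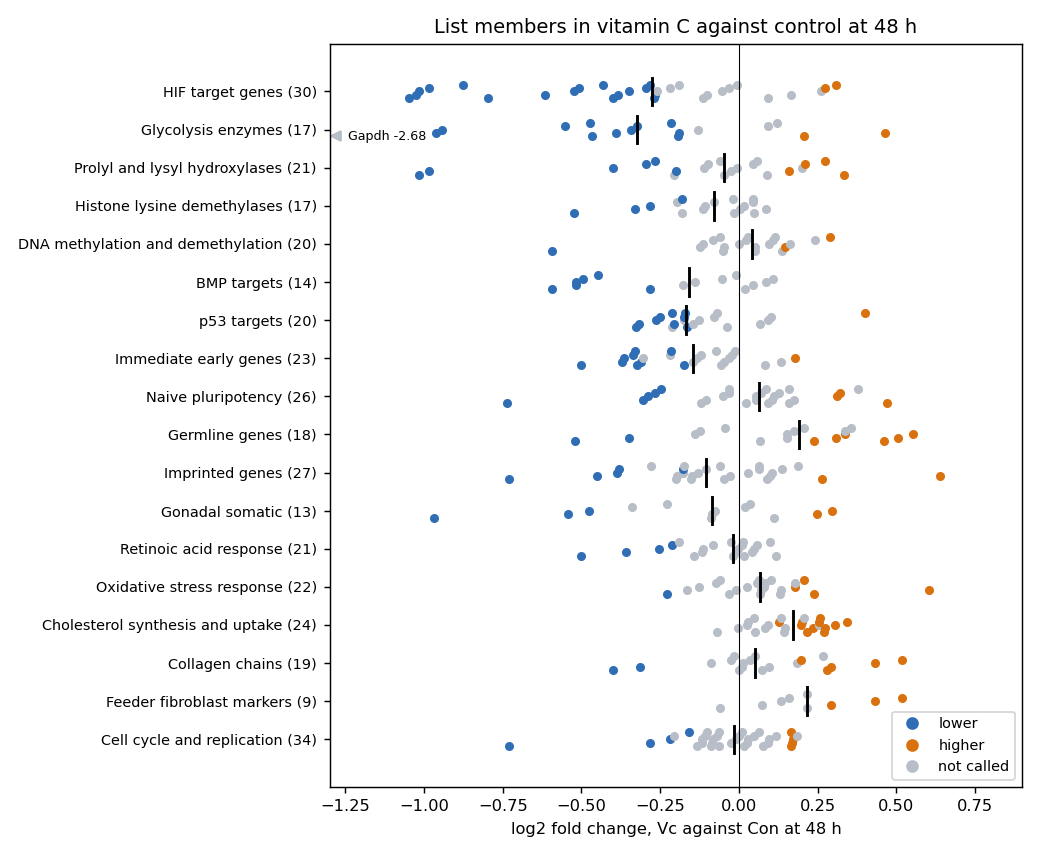
Log2 difference between Vc_48h and Con_48h on the log2(FPKM + 1) scale (horizontal axis) for the tested members of 18 gene lists (rows); points are genes and the black bar is the median of the list. Among the lists drawn, which leave out the 5 genes of Vc transport (median -0.33), HIF targets and glycolysis enzymes have the lowest medians, at -0.28 and -0.32. The arrow marks Gapdh at -2.68, which could not be read. The glycolysis median includes Gapdh, so the order of these 2 lists rests on it.

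Pluripotency genes changed in both directions. Tdgf1 (chr9:110939603-110946158), the Nodal co-receptor Cripto, measured 550.5 and 560.2 FPKM in Con_48h and 327 and 340 in Vc_48h, 1.67-fold less (log2 difference -0.74, adjusted p 8.69e-08). Pou5f1 fell by 0.29 (adjusted p 0.00314), Fgf4, the autocrine FGF ligand, by 0.31 and Trim28, a corepressor of retroelements, by 0.27. Nanog measured 18.1 and 17.7 against 19.4 and 18.2 FPKM and did not pass the test (adjusted p 0.391). Esrrb, a naive-state nuclear receptor, rose by 0.32 from 5.82 and 5.96 to 7.39 and 7.82 FPKM. Of 26 naive pluripotency genes tested 3 rose and 5 fell, where 6.37% and 6.07% of all genes did. Of 15 formative and Nodal genes 4 fell and 1 rose, among them Fgf5, the marker of the formative state, from 21.98 and 20.74 to 14.9 and 12.7 FPKM (log2 difference -0.60).

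Of 13 tested genes on the list of gonadal somatic genes, 2 rose and 3 fell, against 6.37% and 6.07% of all genes. Gata4, which marks gonadal somatic cells and also primitive endoderm, was low, at 0.863 and 0.742 FPKM in Con_48h and 0.368 and 0.118 in Vc_48h (log2 difference -0.54, adjusted p 0.00313), and without the second Vc_48h library its adjusted p was 0.054. It lay below 1 FPKM in the 4 libraries compared and was tested through the groups with AM580. Fst, the activin inhibitor follistatin, fell by 0.97, from 4.31 and 5.04 to 1.78 and 2.02 FPKM. Irx5, a homeobox gene of the fetal gonad, fell by 0.47. Wt1, a zinc finger factor of the gonadal ridge, rose by 0.25 from 9.86 and 10.3 to 11.4 and 12.8 FPKM (adjusted p 0.0182), lost without the first Con_48h library (0.129), the second Con_48h library (0.0575) or the second Vc_48h library (0.207). Crabp2, a retinoic acid binding protein, fell by 0.50, from 12.37 and 12.04 to 8.48 and 8.18 FPKM, and of 21 tested retinoic acid response genes 4 fell and none rose.

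Outside the lists, the largest rise on the log2(FPKM + 1) scale was that of As3mt (chr19:46707458-46741099), an arsenic methyltransferase, from 3.10 and 3.39 to 8.20 and 8.21 FPKM (log2 difference 1.12, SE 0.0553, adjusted p 1.72e-08). Lgals9, the lectin galectin 9, measured 8.66 and 8.13 against 16.7 and 18.3 FPKM (log2 difference 0.97), and Prss50, a testis serine protease, 8.05 and 9.20 against 16.8 and 16.3 FPKM (0.87). In each of these genes every Vc_48h library lay above every Con_48h library by more than 1.5-fold. Nqo1, a quinone reductase that NRF2 induces and a member of the oxidative stress list, measured 70.3 and 77.7 against 103.5 and 123.1 FPKM (log2 difference 0.60). Tgfb3, a TGF-beta ligand, rose by 0.77, Lama3, a laminin chain, by 0.73, and Ankrd1, a target of YAP on the Hippo list, by 0.70. Nlrp4f, an oocyte gene of a family with near-identical copies, rose by 0.81, and its reads may be shared with its relatives.

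**Figure D4:**
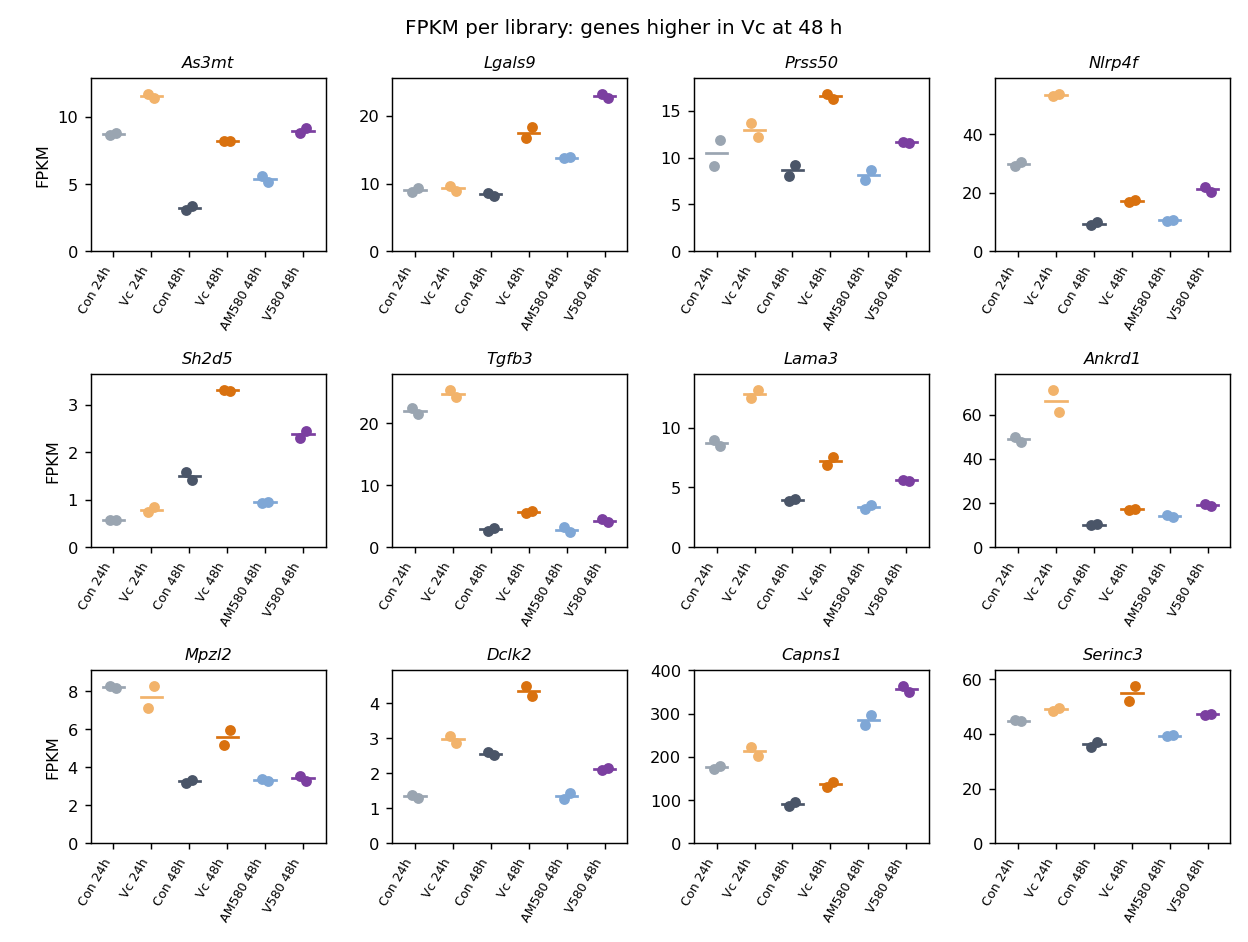
FPKM of the 12 leading rises at 48 h in every library of 6 groups, Con and Vc at 24 h, Con and Vc at 48 h, and AM580 and V580 at 48 h; points are libraries and the line is the mean of 2. At 48 h the Vc libraries lie above the Con libraries in every panel, As3mt with 8.20 and 8.21 against 3.10 and 3.39.

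Among the leading falls outside the HIF, glycolysis and pluripotency lists, Ifitm1 (chr7:140967221-140969825), an interferon-induced transmembrane protein, dropped from 28.2 and 25.5 to 11.1 and 9.83 FPKM (log2 difference -1.28, SE 0.104, adjusted p 2.79e-06), 2.57-fold less. It belongs to a family of similar genes on the same chromosome, which may share reads. Podxl, a sialomucin of the cell surface, measured 17.6 and 18.4 against 9.27 and 8.78 FPKM (log2 difference -0.92). Pop1, a subunit of RNase P, measured 56.4 and 59.2 against 31.2 and 31.7 FPKM (log2 difference -0.86). Pim2, a serine/threonine kinase, fell by 0.63 from 241.3 and 247.4 to 159 and 156 FPKM.

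Markers of other cells that the cultures could hold were measured beside these groups. Of 9 tested feeder fibroblast markers, 3 rose and none fell (6.37% and 6.07% of all genes, as for the lists that follow), Col1a1, Col1a2 and Col3a1, and the summed level of the list was 145 and 154 FPKM in Con_48h and 172 and 172 in Vc_48h. The most abundant member was Acta2, and Lum was too low to be tested. Col1a2 went from 5.44 and 5.75 to 8.71 and 8.16 FPKM (log2 difference 0.52), and Col3a1 from 0.717 and 0.847 to 1.27 and 1.54 FPKM (0.43), the latter with adjusted p of 0.0752 and 0.0899 without the first Con_48h or the second Vc_48h library. Of 3 tested endothelial genes 1 rose, Pecam1, which ESCs express too, and Cdh5 was at most 0.0226 FPKM. Of 2 tested macrophage genes 1 fell, Cd68, a call lost without the second Con_48h library (adjusted p 0.0573) or the first Vc_48h library (0.0935), and the macrophage list summed to 8.68 and 8.76 FPKM in Con_48h and 5.67 and 7.32 in Vc_48h. The part of feeder cells in the other results was not tested.

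At 24 h and in the presence of AM580, Vc was compared with its absence in libraries that the 48 h comparison does not share. At 24 h 806 genes were higher with Vc (7.57%) and 637 lower (5.98%). In V580 against AM580 at 48 h 906 were higher (8.51%) and 1140 lower (10.7%). Of the 30 HIF targets tested, 13 fell and 2 rose at 24 h, with a median log2 difference of -0.12, and 23 fell and none rose with AM580, with a median of -0.33. Of the 17 glycolysis genes 8 fell and 2 rose at 24 h, and 11 fell and 1 rose with AM580. Of the 24 cholesterol genes 6 rose at 24 h and 14 rose and 1 fell with AM580, and of the 18 germline genes 7 rose and none fell at 24 h and 11 rose and 2 fell with AM580.

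**Figure D5:**
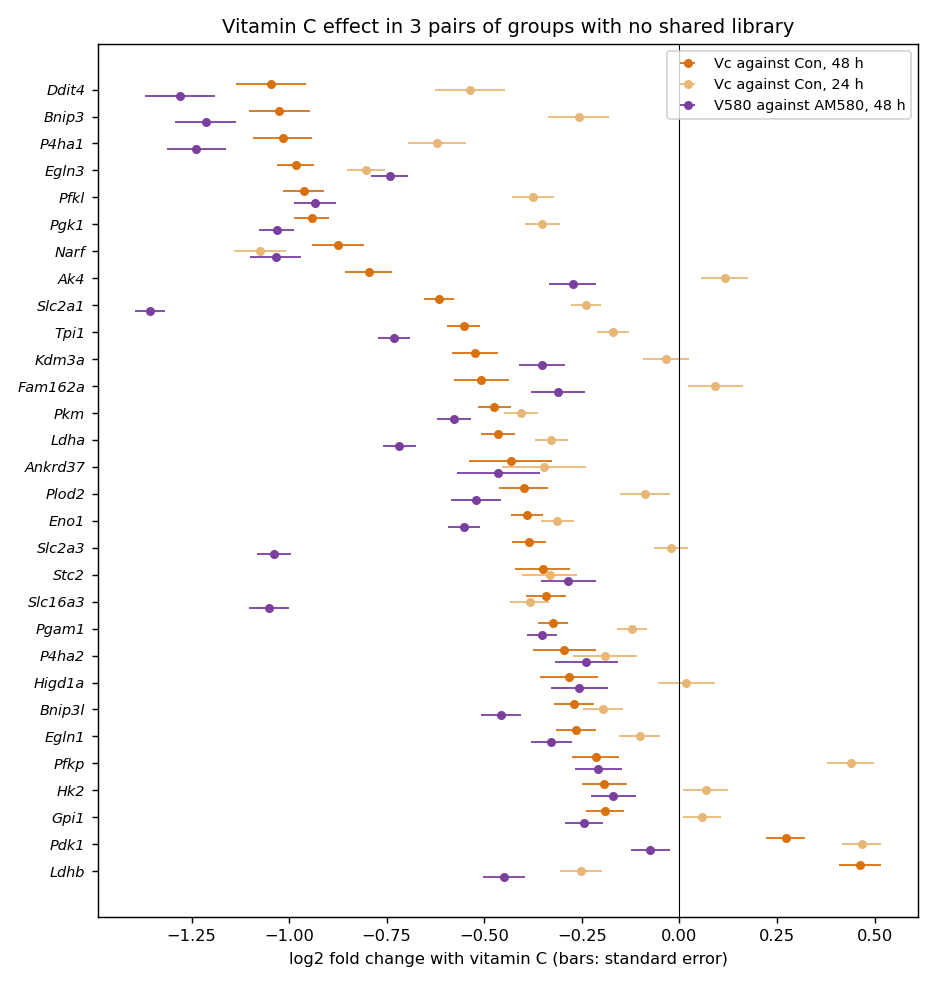
Log2 difference with Vc on the log2(FPKM + 1) scale, with its SE from limma as a bar (horizontal axis), for 30 genes (rows) in 3 comparisons: Vc against Con at 48 h, Vc against Con at 24 h, and V580 against AM580 at 48 h. For Bnip3 the values are -1.02, -0.26 and -1.21, and for Narf -0.87, -1.07 and -1.03.

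The sizes differed between times for some of the genes. The difference between the effect at 48 h and at 24 h passed the test upward in 130 genes (1.22%) and downward in 179 (1.68%), with at least 2-fold in 4 (0.0376%). Among the HIF targets it was downward in 7 genes: Ddit4, Bnip3, Ak4, Slc2a1, Kdm3a, Fam162a and Slc2a3. Bnip3 differed by -0.26 at 24 h and by -1.02 at 48 h, and Ak4 by 0.12 at 24 h, which did not pass the test, and by -0.80 at 48 h. In Narf, by contrast, the log2 difference was -1.07 at 24 h and -0.87 at 48 h. Pgk1 and Pfkl fell by 0.35 and 0.37 at 24 h, and the difference between times passed for both.

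With AM580 the effect of Vc differed from its effect alone upward in 113 genes (1.06%) and downward in 271 (2.55%), with at least 2-fold in 13 (0.122%). Slc2a1 fell by 1.36 on the log2 scale in V580 against AM580 and by 0.62 in Vc_48h against Con_48h, and the difference of -0.74 passed the test. Ddit4, Bnip3 and P4ha1 differed by -1.28, -1.21 and -1.24 with AM580, and for these genes the difference between the effects did not pass. Ldhb rose with Vc alone at 48 h and fell with Vc by 0.45 in the presence of AM580 and by 0.25 at 24 h, and both differences between effects passed the test. Gata4 was 5.32 and 5.72 FPKM with AM580 and 2.65 and 2.05 in V580, a log2 difference of -0.97.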

How the data were processed

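Poly-A RNA-seq of mouse ESC cultures was reduced by the authors to 1 table of FPKM values per gene and library, deposited without counts. The submitters' processing notes name Trim Galore, FastQC, HISAT2, SAMtools, featureCounts, RSEM and build mm10. The tool that made the FPKM, its settings and the strand used in counting are not given in the sources used here. No value column was left without a sample (0). The columns headed X580 were taken as the AM580 libraries from the sample titles and descriptions. This match is an inference, and every comparison with AM580 rests on it.

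FPKM were taken as log2(FPKM + 1) and fitted with limma 3.58.1 (trended variance) in R 4.3.3, with 1 mean for each of 8 groups of 2 libraries and no covariate, on genes that reached an FPKM of 1 in 2 or more of 16 libraries. This was checked on simulated data. P-values were adjusted by Benjamini-Hochberg over all 10644 genes. Contrasts were Vc against Con at 48 h and 24 h, V580 against AM580 at 48 h, and differences between them. The call of the design also required a 2-fold change; calls without it are an alternative used in the text for rises and falls.

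The named genes are the 12 leading rises and 12 leading falls at 48 h with a mean FPKM of at least 2 and no overlap between groups (those of at least 2-fold, then of at least 1.5-fold by smallest p), up to 4 members of each list with a mean FPKM of at least 1 and the largest change, further members of at least 2-fold, and Gata4, Foxl2, Nanog, Pou5f1, Slc23a1, Slc23a2, Tet1, Tet2 and Tet3. Narf, Ak4, Pdk1, Car9, Fam162a, Ldhb, Pkm, Ldha, Eno1, Pgam1, Slc16a3, Id1, Smad7, Wt1, Smc1b, Piwil2, Stag3, Hmgcs1, Insig1, Fgf4, Trim28, Uhrf1, Hif1an, Egln1, P4hb, Vegfa, Dnmt3b, Gapdh, Hk2, Gpi1, Pfkm, Aldoa, Aldoc, Mdm2 and Dusp1 were chosen after their values were seen. All members and lists were chosen with earlier results of these data known. Other settings tried were pseudocounts, filters, normalization, a replicate block, the 4 libraries alone and leaving out each library. Gene positions are from GENCODE vM21, and promoters from RefSeq (GRCm38.p6). FPKM holds no counts, so no counting interval is given.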

Additional observations from a re-analysis of the deposited data

Results flagged for a closer look

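These genes had an effect of Vc that differed, by limma on the difference itself, by at least 2-fold between times or between cells with and without AM580. Between 48 h and 24 h (effect at 48 h minus effect at 24 h, log2), the values were -1.96 for Ly6a, -1.24 for Mep1b, 1.08 for Lefty1 and -1.02 for Kng2. Kng2 fell short of 2-fold under quantile normalization, at -0.967. Ly6a, the surface antigen Sca-1, measured 4.43 and 4.74 FPKM in Con and 20.8 and 22.6 in Vc at 24 h, and at most 0.385 in any of the 4 libraries at 48 h (adjusted p 8.11e-06, and 0.0561 with a pseudocount of 0.1). Lefty1, a Nodal antagonist, measured 3.53 and 3.46 against 1.01 and 1.07 FPKM at 24 h and 99.9 and 96.2 against 93.2 and 94.2 at 48 h. Mep1b, a metalloprotease, measured 0.356 and 0.233 against 2.71 and 3.06 FPKM at 24 h and 0.110 and 0.0831 against 0.365 and 0.428 at 48 h. Its Con_24h, Con_48h and Vc_48h libraries lay below 1 FPKM, so Mep1b was tested only through groups where it was higher. Its differences between times and with AM580 are therefore a description only.

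Between cells with and without AM580 at 48 h (effect in V580 against AM580 minus effect in Vc against Con, log2), the values were upward for Zscan4f (1.33), Mep1b (1.11), Gm21319 (1.08), Arl4d (1.06) and Gm7102 (1.02). They were downward for Srgn (-1.16), Ackr3 (-1.14), Trh (-1.10), Efnb1 (-1.09), Zfp36l3 (-1.03), Prom1 (-1.02), Ephx2 (-1.01) and Krt18 (-1.0). With a pseudocount of 0.1 the difference for Zfp36l3 did not pass (adjusted p 0.274). Ephx2 and Krt18 fell short of 2-fold when each library was centred on its median (-0.995 and -0.984). Under quantile normalization they did so as well (-0.972 and -0.969). Leaving out 1 library brought others below 2-fold, such as Gm21319 (0.916 without the first Con_48h library) and Trh (-0.915 without the first Vc_48h library). Zscan4f, a gene of the two-cell-like state, has near-identical copies that may share its reads. Ephx2, an epoxide hydrolase, measured 0.486 and 0.497 FPKM in Con_48h and 1.74 and 1.78 in Vc_48h. Of these groups only Vc_48h reached an FPKM of 1, so among them Ephx2 passed the filter only through the group where it was higher. Its difference with AM580 is therefore a description only. With 2 libraries per group no library can be set apart from the rest of its group.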

How the results depend on the processing

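The number of genes past both the adjusted p and the 2-fold limit depended on the scale and the limit. For Vc against Con at 48 h it was 5, and it became 41 with a pseudocount of 0.1, 10 with 0.5, 73 with a limit of 1.5-fold, 1324 with no fold limit and 4 to 8 when 1 library was left out. For the difference between times it was 4, and it became 21, 7, 63 and 309 under the same changes, 2 with an FPKM filter of 5, 7 with an unadjusted p and 4 to 6 with a library left out. For the difference with AM580 it was 13, and it became 35, 27, 98 and 384, 7 with the filter of 5, and 12 to 18 with a library left out. The median of the HIF list was -0.356 with a pseudocount of 0.1, -0.34 with the filter of 5 and -0.337 to -0.281 with a library left out. The glycolysis median was -0.224 under quantile normalization and -0.349 to -0.298 with a library left out. The cholesterol median was 0.196 with the filter of 5, 0.147 when each library was centred on its own median and 0.143 to 0.234 with a library left out. The BMP median was -0.243 and -0.213 with pseudocounts of 0.1 and 0.5, -0.447 with the filter of 5 and -0.199 to -0.125 with a library left out. Tet2 (log2 difference 0.03) lay between -0.02 and 0.079 with a library left out, the lowest without the second Vc_48h library; Aldoa (0.12) lay between -0.066 and 0.309 and Aldoc (-0.13) between -0.268 and 0.011. The cause of these shifts was not tested beyond the limits and filters themselves. Of the values of 145 genes under 13 alternatives, 1720 kept their direction and their side of the threshold, 138 kept their direction but missed the threshold , 4 newly passed it and 4 changed sign.

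With the replicate number as a block the counts were 5, 4 and 13, as without it, and 1222 genes passed the adjusted p alone, of which 1206 were among the 1324. Among the 145 genes followed through the alternative settings only Hk2 (adjusted p 0.0561), Ncoa4 (0.0626) and Tfcp2l1 (0.0638) lost their call under the block. The deviations of same-numbered Con_48h and Vc_48h libraries correlated at 0.081 across genes, so the numbers were taken as names and not as pairs. Over all pairs of groups these correlations ran from -0.424 (Con_24h with Vc_24h) to 0.209 (Vc_48h with AM580_48h). The main model has no term for such shared deviations, and the cause of the value at 24 h was not tested.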

Other observations

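The counts of other gene groups are given beside the 6.37% of all genes that rose and the 6.07% that fell with Vc at 48 h. Of 20 tested p53 targets 9 fell and 1 rose, Aen, a nuclease, with Mdm2, the ubiquitin ligase that limits p53, falling by 0.21 from 44.2 and 45.0 to 37.8 and 39.4 FPKM. Of 23 immediate early genes 9 fell and 1 rose. Fos, a subunit of AP-1, measured 2.63 and 3.47 against 1.83 and 1.86 FPKM, and its adjusted p by limma was 0.00781 with all libraries and 0.104 without the second Con_48h library. Dusp1, a MAP kinase phosphatase, fell by 0.31 from 31.4 and 34.1 to 25.9 and 26.5 FPKM. Of 27 imprinted genes 5 fell and 2 rose. Cdkn1c, an inhibitor of cyclin-dependent kinases, measured 14.1 and 15.6 against 8.86 and 8.27 FPKM, and Snrpn, a splicing protein, fell by 0.45 from 100.02 and 101.51 to 75.1 and 71.7 FPKM. Sfmbt2, a Polycomb group gene, rose by 0.64 from 3.55 and 3.33 to 6.01 and 5.82 FPKM.

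Of 22 oxidative stress genes 4 rose and 1 fell, and of 24 genes of the integrated stress response 5 rose and 2 fell. Collagen chains gave 5 rises and 2 falls among 19, Hippo targets 3 and 1 among 22, Wnt targets 1 and 3 among 23, cell cycle genes 4 and 4 among 34, and interferon genes 2 and 2 among 13. The trophoblast list gave 3 falls among 11, and Krt19, an epithelial keratin, measured 3.61 and 3.18 against 2.02 and 1.52 FPKM. The primitive streak list gave 2 falls among 8, iron handling 1 rise and 1 fall among 13, ESC markers 1 rise and 3 falls among 10, and extraembryonic endoderm 2 rises and 2 falls among 19. In V580 against AM580 17 of the 19 extraembryonic endoderm genes fell and none rose, where 10.7% of all genes fell and 8.51% rose. The two-cell-like list gave no call among 6 with Vc alone by limma and 4 rises in V580 against AM580, beside the same 8.51%.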
